A study of Homo sapiens with 9 samples.

Results

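The chromatin around 4 microRNA genes of lymphocytes, MIR21, MIR155HG, MIR17HG and MIR146A, was examined for open regions in Jurkat, a leukaemia line of human T cells. Regions were made by joining the peaks of 4 deposited lists wherever they overlapped or touched, and a region was taken when it lay in the body of a member gene or within 50 kb of its annotated 5′ start. Outside the mitochondrial and unplaced sequences there were 40703 such regions, and 17 of them met this rule. These were 5 at MIR21, 7 at MIR155HG, 1 at MIR17HG and 4 at MIR146A.

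The peaks came from FAIRE-seq, in which formaldehyde-fixed and sonicated chromatin is extracted with phenol and chloroform so that DNA free of nucleosomes is enriched. Jurkat cells of clone E6-1 were either left unstimulated (NS), or received PMA and ionomycin for 4 h by the labels and were then washed and kept for 1 day (stimulus withdrawal, SW). Cells of each kind had first received DMSO, the vehicle, or rottlerin, a protein kinase C inhibitor, at 15 μM for 1 h. Each list came from 1 library called against 1 total input, a mixture of unstimulated and stimulated cells in equal parts, and 5 of the 9 samples were not analysed here as lists.

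The 4 lists are called NS, SW, NS rottlerin and SW rottlerin here, after their labels. The labels and the methods of the study differ on what they hold: the methods describe peaks called in DMSO samples alone, one for each cell state, whereas the labels assign 2 of the lists to rottlerin. The numbers of merged regions obtained from the 4 files, 40731 before and 40703 after removal of other sequences, both equal those that the study states for the DMSO samples. The values printed as NS rottlerin and SW rottlerin thus probably belong to DMSO-treated cells, and these may be stimulated or re-stimulated cells. Which list would hold which cell state is not known. The values printed as NS and SW may therefore also belong to another state than their label says. The names therefore stand for labels only, and no effect of the drug or of the cell state is read from them. Since each list rests on 1 library, there is no replicate error for any difference between lists, and none was tested. In addition, the labels give a longer first stimulation than the methods do.

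MicroRNAs are short RNAs cut from hairpin precursors by DROSHA in the nucleus and DICER1 in the cytoplasm, and loaded onto Argonaute proteins. They lower the output of mRNAs that pair with their seed, a stretch near the 5′ end. In lymphocytes, miR-155 is made from the MIR155HG transcript after antigen receptor signalling, miR-146a is an NF-κB-induced brake on NF-κB signalling, the cluster in MIR17HG is driven by MYC and promotes proliferation, and miR-21 is made from the end of the VMP1 gene and its own nearby promoters.

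The mature microRNAs are shown because their position in the genome fixes where the regions lie relative to the RNA that is made. They were read from RefSeq (table on GRCh38.p14) and placed by exact match on GRCh37. Capitals mark the seed, bases 2 to 8.
hsa-miR-21-5p: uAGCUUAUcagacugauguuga
hsa-miR-155-5p: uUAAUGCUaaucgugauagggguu
hsa-miR-146a-5p: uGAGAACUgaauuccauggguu
hsa-miR-17-5p: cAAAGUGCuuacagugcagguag
hsa-miR-20a-5p: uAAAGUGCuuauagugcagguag
hsa-miR-18a-5p: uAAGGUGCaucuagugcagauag
hsa-miR-19a-3p: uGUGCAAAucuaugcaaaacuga
hsa-miR-19b-3p: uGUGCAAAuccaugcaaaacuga
hsa-miR-92a-3p: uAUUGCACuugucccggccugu

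Among these 9, miR-17-5p and miR-20a-5p share a seed, as do miR-19a-3p and miR-19b-3p, and the other 5 each have a seed of their own. The miR-155-5p sequence, at chr21:26946295-26946318, was the only one that lay inside a region. The sequence of miR-21-5p, at chr17:57918634-57918655, began 3277 bp after the nearest region, and that of miR-146a-5p, at chr5:159912379-159912400, began 16504 bp after it. The 6 mature sequences of the MIR17HG cluster began 1527 to 2270 bp after the single region at that gene.

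The 300 bp around the centre of 5 regions are shown next, as the plus strand of GRCh37. They are the region nearest the annotated start of MIR21, MIR17HG and MIR146A and those present in every list but NS. For the MIR21 region 12.4 kb upstream and for MIR17HG, the centre is that of the interval shared by all peaks, a choice made after it was seen that the middle of these wide regions lies outside it. Capitals mark letters that match a searched motif on either strand.
MIR21, 12.4 kb upstream, chr17:57906713-57907012: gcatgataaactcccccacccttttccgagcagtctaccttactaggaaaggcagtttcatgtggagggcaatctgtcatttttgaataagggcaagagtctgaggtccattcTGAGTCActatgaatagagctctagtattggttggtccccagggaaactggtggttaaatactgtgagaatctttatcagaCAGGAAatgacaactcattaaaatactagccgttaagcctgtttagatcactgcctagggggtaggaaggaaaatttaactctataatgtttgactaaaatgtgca
MIR21, 3.49 kb upstream, chr17:57914991-57915290: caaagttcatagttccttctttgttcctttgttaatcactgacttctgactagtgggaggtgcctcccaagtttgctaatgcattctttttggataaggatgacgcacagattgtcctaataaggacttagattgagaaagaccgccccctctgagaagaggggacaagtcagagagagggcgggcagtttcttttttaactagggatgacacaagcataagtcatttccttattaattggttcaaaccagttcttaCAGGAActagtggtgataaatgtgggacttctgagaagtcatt
MIR17HG, at the start, chr13:91999725-92000024: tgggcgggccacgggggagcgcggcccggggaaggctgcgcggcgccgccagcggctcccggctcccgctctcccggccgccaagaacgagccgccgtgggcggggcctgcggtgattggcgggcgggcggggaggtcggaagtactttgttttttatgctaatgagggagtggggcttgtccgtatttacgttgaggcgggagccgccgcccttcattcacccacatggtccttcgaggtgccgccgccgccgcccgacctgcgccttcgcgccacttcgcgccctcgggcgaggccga
MIR146A, 46.4 kb upstream, chr5:159865798-159866097: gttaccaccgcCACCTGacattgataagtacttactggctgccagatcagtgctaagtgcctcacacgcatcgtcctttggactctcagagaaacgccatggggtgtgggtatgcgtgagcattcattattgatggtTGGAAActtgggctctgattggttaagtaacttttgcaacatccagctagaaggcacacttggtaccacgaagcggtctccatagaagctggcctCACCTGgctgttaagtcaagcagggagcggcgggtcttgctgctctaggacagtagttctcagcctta
MIR146A, 17.5 kb upstream, chr5:159894730-159895029: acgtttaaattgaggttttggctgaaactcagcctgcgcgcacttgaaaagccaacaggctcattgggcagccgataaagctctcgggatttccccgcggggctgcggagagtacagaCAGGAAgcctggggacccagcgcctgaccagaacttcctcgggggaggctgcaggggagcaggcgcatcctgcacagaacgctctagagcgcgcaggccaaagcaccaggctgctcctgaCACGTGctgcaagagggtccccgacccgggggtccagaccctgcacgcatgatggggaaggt

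In the MIR21 sequence 12.4 kb upstream, the capitals are an AP1 match, TGAGTCA at bases 114 to 120, and an ETS match, CAGGAA at bases 195 to 200. The MIR21 sequence 3.49 kb upstream held 1 ETS match. At MIR146A, the sequence 46.4 kb upstream held 2 CACCTG matches (the bHLH letters searched) and 1 NFAT match, and that 17.5 kb upstream held 1 ETS match and the MYC letters CACGTG. The MIR17HG sequence, of 72.3% GC with 42 CpG, held none of the 9 motif families.

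Few regions around these genes had a peak in the NS list. A peak was present in 4 of the 17 regions in the NS list, 13 in SW, 9 in NS rottlerin and 14 in SW rottlerin. Over all merged regions the shares were 46.5%, 49.3%, 58.4% and 74.5%, beside 23.5%, 76.5%, 52.9% and 82.4% for the members. Thus 13 of 17 (76.5%) had no NS peak, against 53.5% of all regions. MIR21 and MIR146A accounted for 9 of the 13, since none of their 9 regions had an NS peak. The other 4 lay at MIR155HG. From FAIRE-seq of this same series, the study had already named MIR21 and MIR155 among genes near regions more accessible than in NS. The share without an NS peak at MIR21 and MIR155HG is therefore not independent of that earlier result. The lists differ in length, from 18977 peaks in NS to 30409 in SW rottlerin. When each list was restricted to its highest-scoring peaks, as many as the shortest list holds, 10 of 14 member regions had no NS peak, against 41.5% of all. The count depended on where the window was placed: around the start of the host genes of MIR21 and MIR146A (VMP1 and MIR3142HG) instead of the hairpins, 10 of 18 regions (55.6%) had no NS peak, against 53.5% of all. In the higher-scoring 50% of each list, 4 of 7 (57.1%) had none, against 52.1% of all. The absence of a peak means only that none was called at the depth sequenced, which these lists do not give. In bulk cells, fewer cells with an open region and less opening per cell cannot be told apart.

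**Figure D1:**
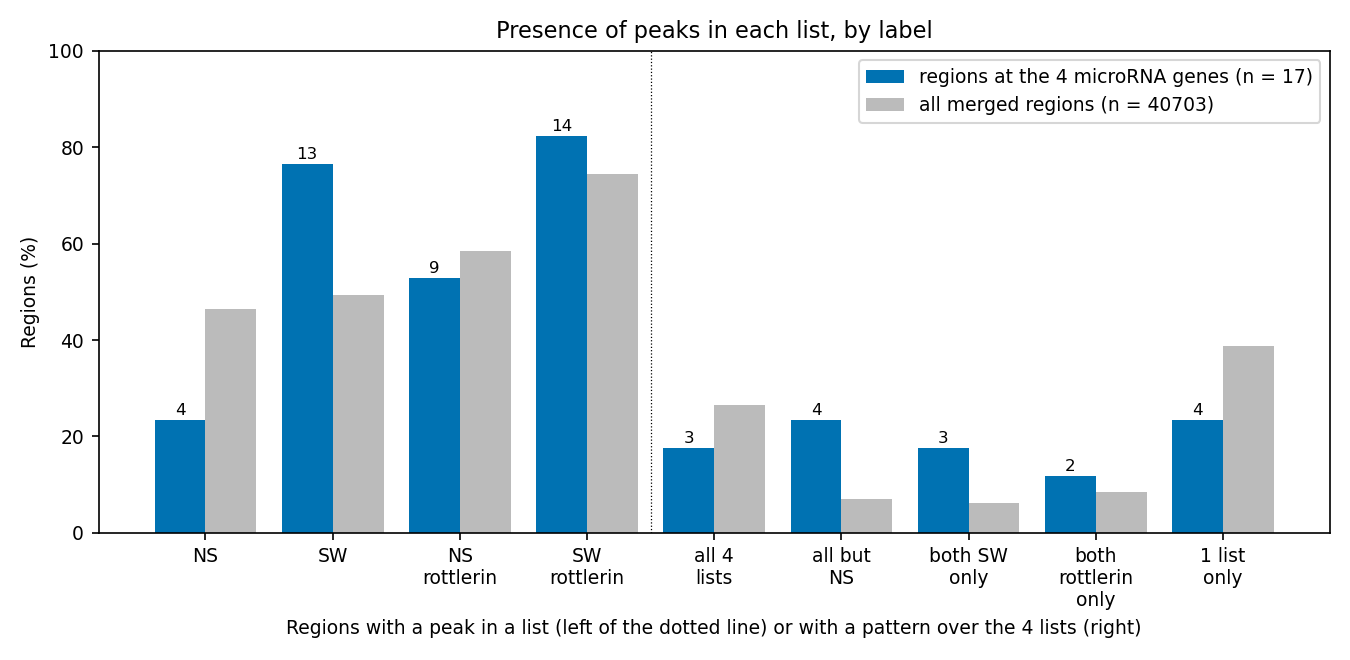
Share of regions (%) with a peak in each list or with a given pattern over the lists, for the 17 regions at the 4 microRNA genes (blue, number of regions above each bar) and for all 40703 merged regions (grey). The blue bar is shorter than the grey one for NS (4 regions, 23.5% against 46.5%) and longer for SW (13 regions, 76.5% against 49.3%).

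By pattern, 4 of the 17 regions had a peak in every list but NS, against 7.08% of all regions, and these were 2 at MIR21 and 2 at MIR146A. The count was 2 of 18 with windows around the host gene's start and 0 of 7 in the higher-scoring 50% of each list. A further 3 regions, 2 at MIR21 and 1 at MIR155HG, had peaks in both SW-labelled lists only, a pattern of 6.26% of all regions. Peaks in both rottlerin-labelled lists only were found at 2 regions, 1 at MIR155HG and 1 at MIR146A, against 8.44%. All 4 lists had a peak at 3 regions, against 26.6%, and these were 2 at MIR155HG and the MIR17HG start. A single list had a peak at 4 regions, against 38.8%. The last region, at MIR155HG, had peaks in NS and SW.

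**Figure D2:**
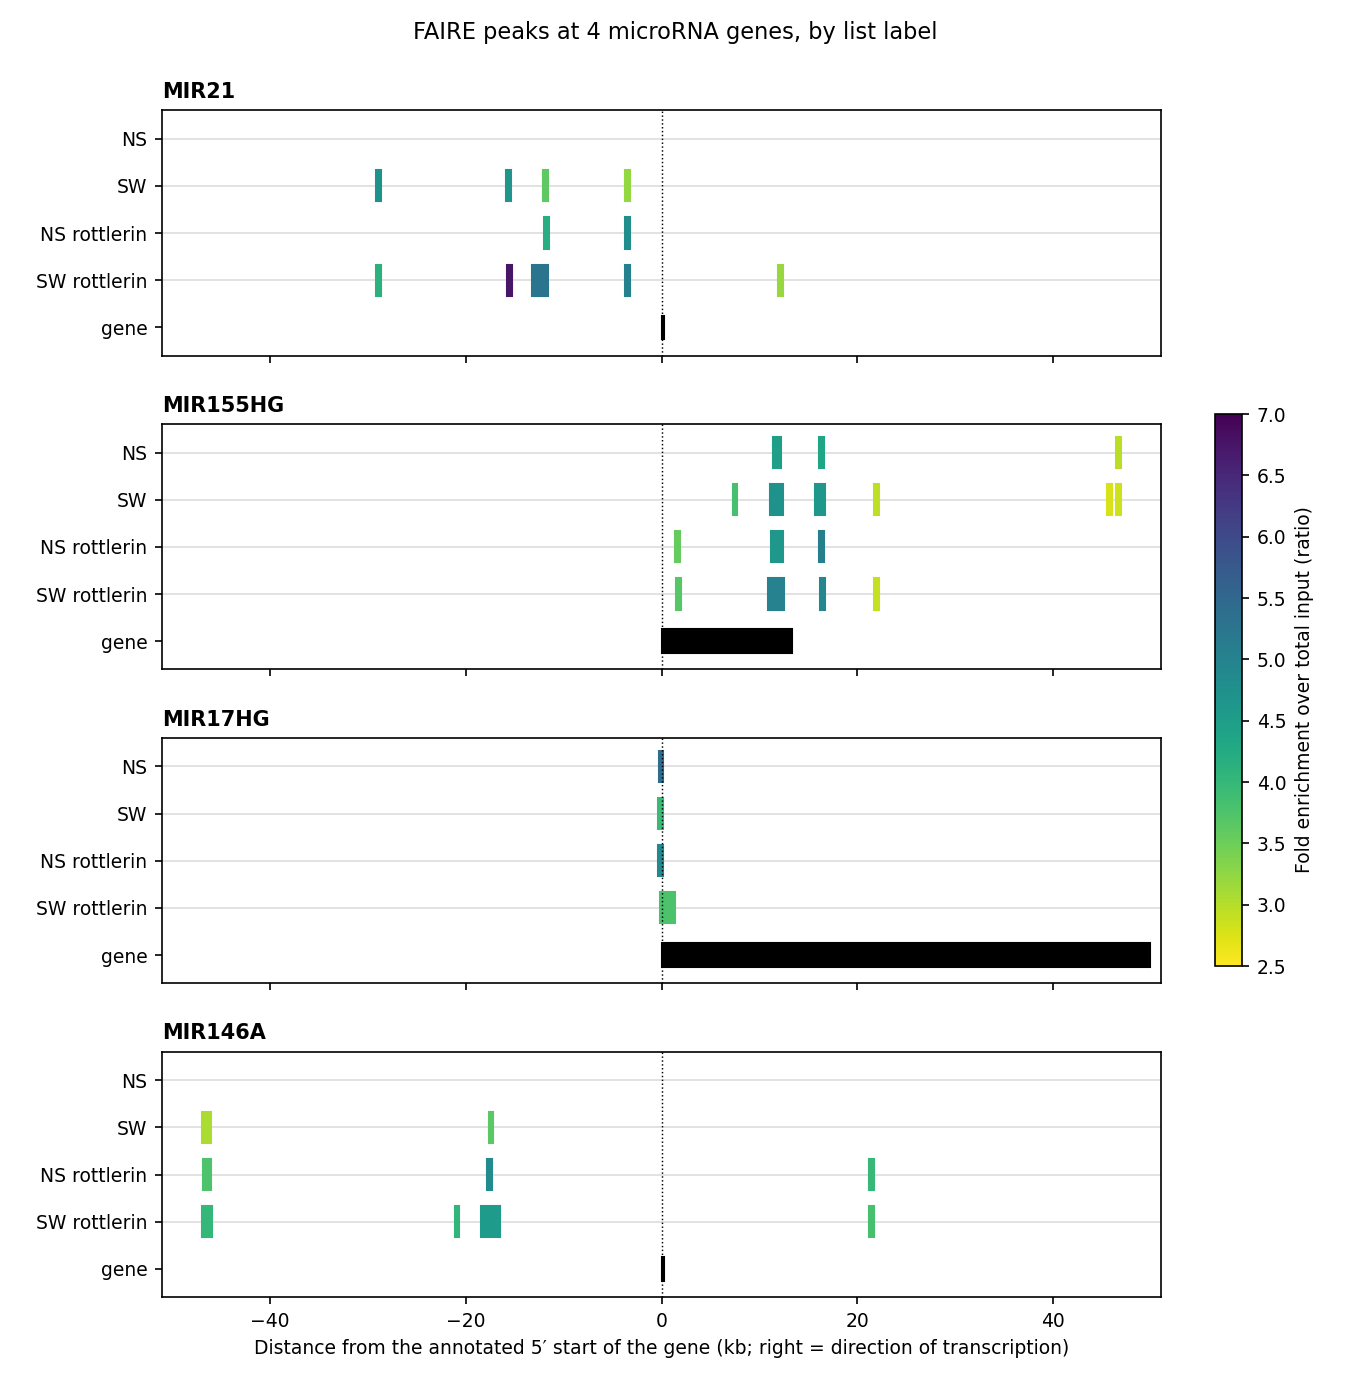
Peaks of each list around the 4 genes, by distance (kb) from the annotated 5′ start, with colour for fold enrichment over total input and a black bar for the gene; peaks under 0.5 kb are drawn 0.5 kb wide and genes under 0.3 kb are drawn 0.3 kb wide. The NS rows of MIR21 and MIR146A are empty, whereas MIR155HG has 3 NS peaks and MIR17HG 1.

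At MIR21, the peaks lay mainly upstream of the hairpin, within VMP1, and all came from lists other than NS. The gene (ENSG00000199004.1) is the hairpin itself, at chr17:57918627-57918698. Of its 5 regions, 4 lay upstream and 1 downstream, 4 had a peak in SW, 2 in NS rottlerin and 5 in SW rottlerin. The nearest region with an NS peak was 24.8 to 50.2 kb from each of them. In a wider window of 100 kb, 7 of 10 regions had no NS peak, and around the start of VMP1 1 of 3 had none.

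The region nearest the hairpin, chr17:57914923-57915357, is 435 bp wide, has its mid-point 3.49 kb upstream in a VMP1 exon, and ends 3270 bp before the hairpin. It contains the annotated starts of 4 VMP1 transcripts, at 57914989, 57915216, 57915292 and 57915312. Its fold enrichment over total input, column 7 of the lists, was 3.23 in SW, 4.80 in NS rottlerin and 5.04 in SW rottlerin, with no NS peak. The value in SW was low for that list, at its 14.2nd percentile, and those in the rottlerin-labelled lists were at the 73.2nd and 79.0th percentiles of theirs. The score, 10 times the −log10 of the q-value, was 41, 126 and 140.

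The next region upstream, chr17:57905442-57907015, lay 12.4 kb from the start in a VMP1 intron and spanned 1574 bp. Its fold enrichment was 3.62 in SW, 4.20 in NS rottlerin and 5.26 in SW rottlerin. The peak was 318 bp wide in SW, 244 bp in NS rottlerin and 1574 bp in SW rottlerin. These peaks do not cover the same bases, since the SW rottlerin peak ran across the whole region and the others covered its downstream end, where the AP1 and ETS letters lie.

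The region chr17:57902885-57903268, 15.6 kb upstream in a VMP1 intron, had a fold enrichment of 4.66 in SW and 6.74 in SW rottlerin. The latter was the highest value at any of the 17 regions, at the 96.4th percentile of its list. The region chr17:57889549-57889881, 28.9 kb upstream in a VMP1 exon, had 4.73 in SW and 4.12 in SW rottlerin. Both had peaks in the SW-labelled lists only. The only region downstream, chr17:57930714-57930890, 12.2 kb from the start and intergenic, had a single peak, in SW rottlerin, with a fold enrichment of 3.19 and a score of 17.

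At MIR155HG, the peaks fell in the gene and beyond its 3′ end, and 2 of the 7 regions were present in every list. The gene (ENSG00000234883.7_8) spans chr21:26934122-26947480 on the plus strand and is a non-coding host of miR-155. No region lay upstream of its annotated start, and no peak lay within 1 kb of the start in any list. The NS list had 3 peaks, SW 6, NS rottlerin 3 and SW rottlerin 4.

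The region chr21:26945032-26946584, with its mid-point 11.7 kb downstream of the start in an intron, covers the miR-155-5p sequence, and the peak of every list did so. Its fold enrichment was 4.48 in NS, 4.71 in SW, 4.62 in NS rottlerin and 5.01 in SW rottlerin. The peaks were wide in all lists, at 802, 1382, 1254 and 1553 bp in the same order. The highest value was 1.12 times the lowest, and the scores were 86, 89, 82 and 94.

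The region chr21:26949838-26950835, 16.2 kb from the start and past the end of the gene, had a fold enrichment of 4.33 in NS, 4.62 in SW, 5.07 in NS rottlerin and 4.92 in SW rottlerin. The highest was 1.17 times the lowest. These 2 regions had the highest fold enrichments at MIR155HG, between the 60.4th and 79.3rd percentiles of their lists, and all other values at the gene lay below them.

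The region nearest the start, chr21:26935615-26936003, 1.69 kb from the start in an intron, had peaks in the rottlerin-labelled lists only, with fold enrichments of 3.56 and 3.68 in NS and SW rottlerin. Its nearest NS region was 9.03 kb away. A weak peak of SW alone lay at chr21:26941514-26941739, 7.50 kb from the start, with a fold enrichment of 3.82 and a score of 28. At chr21:26955831-26956307, 21.9 kb from the start, both SW-labelled lists had peaks, of 2.94 in SW and 2.89 in SW rottlerin. The second of these had a score of 12, so that its q-value lay above 0.05, the only such peak at the 4 genes.

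The last regions of the MIR155HG window lay by MRPL39, a mitochondrial ribosomal protein gene on the opposite strand. The region chr21:26979816-26979980, 45.8 kb from the MIR155HG start, contains the MRPL39 start at 26979829 and had a peak in SW alone, with a fold enrichment of 2.78. The region chr21:26980676-26980842, 46.6 kb from the start, had 2.97 in NS and 2.84 in SW. The gap between them is 0.696 kb, and both were at or below the 5.33rd percentile of their lists.

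At MIR17HG, a single region covered the 5′ start in every list and was higher in the NS-labelled lists than in the SW-labelled lists. The gene (ENSG00000215417.14_8) spans chr13:91999940-92049846 on the plus strand and gives rise to the miR-17 to miR-92a cluster. The region, chr13:91999739-92001345, contains the annotated starts of 9 MIR17HG transcripts and ends 1514 bp before the first hairpin. Its fold enrichment was 5.42 in NS, 3.95 in SW, 4.89 in NS rottlerin and 3.78 in SW rottlerin. Within its list, the value was at the 86.6th percentile in NS, the 46.8th in SW, the 75.5th in NS rottlerin and the 39.5th in SW rottlerin. The scores were 147, 69, 121 and 62. The peak was 272, 220 and 275 bp wide in the first 3 lists and 1592 bp wide in SW rottlerin, and the part of this width in the lower value of SW rottlerin was not tested. No other region was found in the gene body, 49907 bp long, or within 50 kb of its start.

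At MIR146A, peaks lay at the host transcript and on both sides of the hairpin, and none came from the NS list. The gene, placed by exact match of its RefSeq hairpin at chr5:159912359-159912457, lies near the 3′ end of the non-coding host MIR3142HG (chr5:159865601-159914433). Its 4 regions had 2 peaks in SW, 3 in NS rottlerin and 4 in SW rottlerin, and the nearest region with an NS peak was 16.5 to 84.8 kb away. In the window of 100 kb, 7 of 9 regions had no NS peak, and around the start of MIR3142HG 5 of 7 had none.

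The region chr5:159893883-159895875, 17.5 kb upstream in a host intron, contains the annotated start of a MIR3142HG transcript at 159895275. It was 1993 bp wide, the widest of the 17. Its fold enrichment was 3.66 in SW, 4.87 in NS rottlerin and 4.55 in SW rottlerin. As at MIR21, the SW rottlerin peak covered the whole region, at 1993 bp, against 475 bp in SW and 358 bp in NS rottlerin.

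The region chr5:159865452-159866443, 46.4 kb upstream of the hairpin, contains the annotated start of MIR3142HG itself. Its fold enrichment was 3.07 in SW, 3.75 in NS rottlerin and 4.01 in SW rottlerin, with peaks of 905, 839 and 992 bp. The value in SW was at the 8.59th percentile of that list. The region chr5:159933713-159933934, 21.5 kb downstream and intergenic, had 3.98 in NS rottlerin and 3.83 in SW rottlerin. The region chr5:159891260-159891692, 20.9 kb upstream, had a peak in SW rottlerin alone, of 4.06 with a score of 29.

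**Figure D3:**
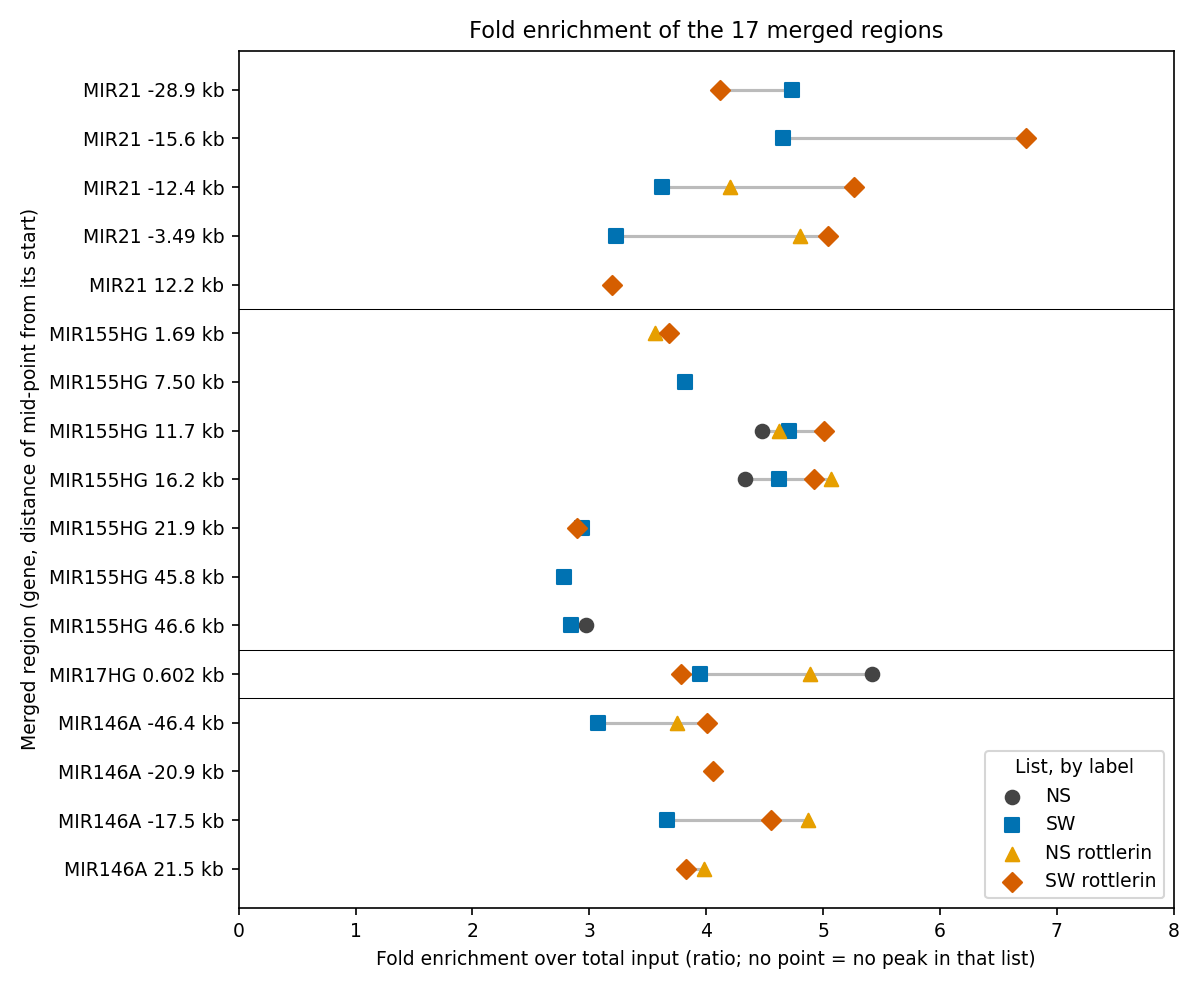
Fold enrichment over total input (ratio, from 0) of each of the 17 regions, with 1 point per list that had a peak and a grey line from the lowest to the highest. At MIR17HG the NS-labelled points (5.42 and 4.89) lie to the right of the SW-labelled points (3.95 and 3.78), and the MIR21 region 15.6 kb upstream holds the highest value, 6.74.

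Where 2 lists both had a peak, the fold enrichments were compared as a ratio, called when 1.5-fold or more in either direction. This call marks the size of a difference between 2 libraries and is not a test. The comparisons share lists and the total input, so they are given side by side.

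For SW over NS, 4 members had both peaks, and none was 1.5-fold higher, against 1.67% of all shared regions, or lower, against 2.18%. The MIR17HG start had the lowest ratio, 0.729, at the 5.13th percentile of all shared regions, and the 3 regions at MIR155HG lay between 0.957 and 1.07. For SW rottlerin over NS rottlerin, none of 9 members was called higher, against 2.60%, or lower, against 0.987%. Again MIR17HG had the lowest ratio, 0.774, at the 5.50th percentile, and the others lay between 0.933 and 1.25. The median of the 9 was 1.03, as it was for all shared regions.

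For SW rottlerin over SW, 1 of 10 members was called higher, against 3.75% of all shared regions, and none lower, against 0.344%. The called region was that nearest the MIR21 hairpin, with a ratio of 1.56 at the 97.5th percentile. It fell to 1.42 when column 7 was divided by each list's median over the regions present in all 4 lists. The MIR21 regions 12.4 and 15.6 kb upstream followed at 1.46 and 1.45, the 95.0th and 94.7th percentiles, while the MIR21 region 28.9 kb upstream was at 0.870, the 8.87th percentile. The MIR146A regions 46.4 and 17.5 kb upstream had ratios of 1.31 and 1.24. The median of the 10 was 1.15, against 1.08 for all shared regions. For NS rottlerin over NS, none of 3 members was called higher, against 3.19%, or lower, against 1.38%, and the ratios were 0.901 at MIR17HG and 1.03 and 1.17 at MIR155HG.

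**Figure D4:**
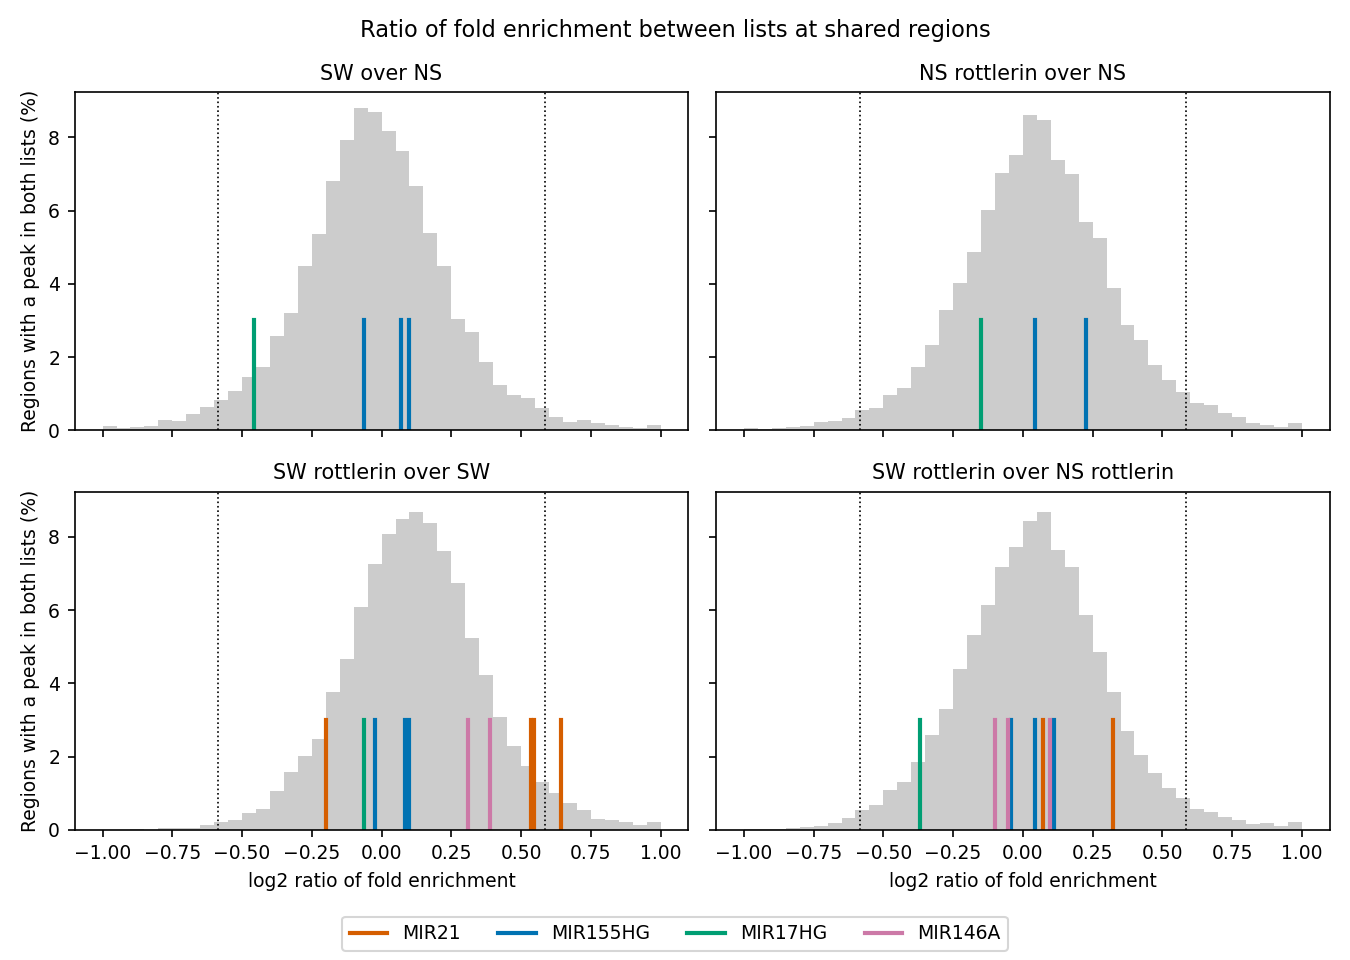
Log2 ratio of fold enrichment between pairs of lists: grey bars give the share (%) of all regions with a peak in both lists, the outermost bars also hold all values beyond 1.00 in size, coloured lines (of arbitrary height) are the member regions and dotted lines mark 1.5-fold. Only the MIR21 line at a ratio of 1.56, for SW rottlerin over SW, lies past a dotted line, and the MIR17HG line lies leftmost among the members in 3 of the 4 panels.

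As joined over the lists, the member regions had a higher median width than all regions. Their median width was 433 bp, from 165 to 1993 bp, against 294 bp over all merged regions, and 6 of 17 were 900 bp or wider, against 7.28% of all, a width set after the values were seen. Joining peaks of several lists can widen a region, and a single list made 23.5% of members, against 38.8% of all. The MIR21 region 12.4 kb upstream, the MIR17HG region and the MIR146A region 17.5 kb upstream were that wide through the SW rottlerin peak alone. Mid-points fell in introns at 9 regions, in exons at 2 and outside genes at 6, and 5 regions contained an annotated transcript start. In the central 300 bp the median GC content was 44.7%, against 46.3% of all regions. It reached 77.7% at MIR17HG and 70.3% at the MRPL39 start, with 43 and 31 CpG. The median CpG count was 3 at the members, against 4 over all regions. This MIR17HG window lay outside the peaks of NS, SW and NS rottlerin. The window at the shared interval there had 72.3% GC and 42 CpG.

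Motifs were sought as fixed letters on both strands of the central 300 bp, where a match describes the letters only. The ETS letters (CCGGAA or CAGGAA) were in 9 of 17 regions, against 44.8% of all, and the RUNX letters (TGTGGT) in 5, against 32.8%. The NFAT letters (TGGAAA) were in 5, against 27.9%, and the bHLH letters (CACCTG) in 4, against 21.4%. The NF-κB letters, GGG, any 3 bases and TTCC, were in 3, against 5.24%. These were the MIR21 region 12.2 kb downstream, the MIR155HG region 21.9 kb from the start and the MIR146A region 20.9 kb upstream. Their peaks had low scores. The first and last had a peak in SW rottlerin alone, with scores of 17 and 29. The second had scores of 16 in SW and 12 in SW rottlerin. The list medians were 54 in SW and 53 in SW rottlerin. Stretches that depart from these letters, such as GGGATTTCCC in the MIR146A region 17.5 kb upstream, were not counted. The AP1 letters (TGANTCA) were in 2, against 17.9%, at the MIR21 region 12.2 kb downstream and the MIR155HG region 7.50 kb from the start. The GATA letters (AGATAA) were in 1, against 21.0%, the MYC letters (CACGTG) in 1, against 5.68%, and the EGR letters (GCGNGGGCG) in none, against 3.89%. The TTCC of the NF-κB letters can also be part of an ETS or NFAT match on the opposite strand, and CAGGAA and TGGAAA on opposite strands can share the bases TG. Around the centre of the interval that all peaks share, AP1 letters were in 3 regions, the third being the MIR21 region 12.4 kb upstream, and GATA letters in 2.

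Other microRNA genes and the machinery that makes microRNAs were read in the same way, as a peak within 1 kb of the annotated 5′ start. For genes entered as a hairpin, such as MIR142 and MIR29A, this start is that of the hairpin, which need not be a promoter. Of 16 other lymphocyte microRNA genes, 5 had such a peak in every list, among them MIR181A1HG, host of miR-181a, which sets T cell receptor sensitivity, with fold enrichments of 6.19 in NS, 7.05 in SW, 5.76 in NS rottlerin and 7.58 in SW rottlerin. A further 2 had one in some lists: MIR150 had 3.10 in NS rottlerin alone, and MIR29A had 3.61 in NS, 3.73 in NS rottlerin and 3.23 in SW rottlerin. The 5 with a peak in every list were host genes. The remaining 9, which include hairpin entries such as MIR142, had none, and for a hairpin this says nothing of its promoter. Within 50 kb of the 16 starts lay 94 regions, of which 52.1% had no NS peak, against 76.5% at the 4 member genes, and 8.51% had peaks in all lists but NS, against 23.5%.

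Of 14 microRNA biogenesis genes, 9 had a peak at the start in every list. DROSHA had 5.09 in NS, 4.60 in SW, 5.07 in NS rottlerin and 5.11 in SW rottlerin, and DICER1 had 4.58, 4.92, 4.92 and 5.75 in this order. RAN, the GTPase that drives nuclear export of precursors, had 3.08 in NS, 3.69 in NS rottlerin and 3.50 in SW rottlerin, and no SW peak. Of the 37 regions within 50 kb of these starts, each counted once, 37.8% had no NS peak. Of 7 microRNA genes restricted to other tissues that were placed, MIR375, a microRNA of pancreatic islets, had a peak of 4.09 in SW and 3.90 in SW rottlerin, and 6 had none. Hairpin entries such as MIR203A are among these as well, so their promoters were not read.

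The label of a T cell line was checked in the same way. Of 9 T cell marker genes, 5 had a peak at the start in NS, 6 in SW, 4 in NS rottlerin and 5 in SW rottlerin, whereas none of 8 markers of other blood cells had one in any list. CD3D, CD3E and CD28 had peaks in all 4 lists, and CD2 and TRAC had none. CD247 had none in NS, LCK none in NS rottlerin, CD3G a peak in NS alone (4.87) and TRBC2 in SW alone (4.45).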

How the data were processed

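Per the methods, the authors used CutAdapt to trim FAIRE-seq reads, Bowtie2 to map them on Hg19, Picard to drop duplicates and MACS2 to call broad peaks in DMSO samples against the total input; the lists analysed here carry the labels of DMSO and of rottlerin samples. Versions are not given in the sources used here. Each deposited list holds a score, p-values and q-values as −log10, and in column 7 the fold enrichment, a ratio. Read depth is unknown from peaks, and read counts were not used here. MACS2 averages column 7 over a broad peak, so peaks of different width are not measured over the same bases.

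Peaks of the 4 lists were joined when they overlapped by 1 bp or touched, giving 40731 regions, and regions on sequences other than the autosomes, X and Y were removed. Where a list had several peaks in a region the highest column 7 was to be taken, but no member region had more than 1 per list. Genes came from GENCODE release 44 on GRCh37. MIR146A and other hairpins were placed by exact match of the RefSeq hairpin. Percentiles of fold enrichment are among all peaks of that list on the autosomes, X and Y. The 4 genes, all their regions and, of the other lists, genes with a peak at the start in 1 to 3 lists were to be named. DROSHA, DICER1, MIR181A1HG and the T cell markers in all or no lists were added as examples after their values were seen. Members, lists and motifs were chosen with earlier results of these data known. One sequence is not reported here. The steps were tested on simulated data. The tools were matplotlib 3.10.9, numpy 2.4.6, pandas 2.3.3, pysam 0.24.0, Python 3.11.15 and samtools 1.23.1.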

Additional observations from a re-analysis of the deposited data

Results flagged for a closer look

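One region moved in opposite directions between the pairs of lists that differ in the same label. At the MIR155HG region 16.2 kb from the start, SW minus NS was 0.283 in fold enrichment between the DMSO-labelled lists (4.62 and 4.33) and -0.146 between the rottlerin-labelled lists (4.92 and 5.07). The difference was not tested, since each list is 1 library, and both ratios, 1.07 and 0.971, lay within the middle 50% of all shared regions.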

How the results depend on the processing

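No paired analysis was possible because each list is 1 library and no test was run. Counts are given as all regions at the 4 genes unless a gene is named. Nothing moved when peaks were assigned by mid-point or when touching peaks were kept apart, and with peaks above a q-value of 0.05 left out 1 SW rottlerin peak was lost. A 25 kb window left 13 regions, 10 of them without an NS peak, and the same number of peaks per list left 14, 10 of them without. A 100 kb window gave 28 regions, 10 at MIR21, 2 at MIR17HG and 9 at MIR146A, with 9 in all lists, and 64.3% had no NS peak. Windows around the host gene's start gave 3 regions at MIR21 and 7 at MIR146A, with 7 in all lists and 2 in all but NS. The higher-scoring 50% of each list left 7 regions, 3 at MIR21, 2 at MIR155HG and 1 at MIR146A, of which 4 (57.1%, against 52.1% of all regions) had no NS peak and 0 were in all lists but NS. Leaving out each list in turn, chosen after seeing the data, gave 15 to 17 regions. Without SW, the MIR155HG regions with no NS peak fell from 4 to 2. Of 78 recomputed ratios, 77 kept their side of 1.5-fold, and the MIR21 ratio of 1.56 became 1.42. Depth limits every absence of a peak.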

Other observations

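Among the 16 other lymphocyte microRNA genes, MIR222HG, host of miR-221 and miR-222, had 9 regions within 50 kb of its start, and none of the 9 had an NS peak. MIR146B, whose microRNA shares the miR-146 family with MIR146A, had 8 regions, 7 of them without an NS peak. By contrast, all 5 regions around MIR22HG had one. Over the 94 regions at the 16 genes, 52.1% had no NS peak, near the 53.5% of all regions. These genes were chosen after their values were seen, and no list had a peak within 1 kb of the start of MIR222HG or MIR146B.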
